A study of Homo sapiens with 21 samples.

Results

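The BCL2 family was followed here through 10 of its genes, picked by symbol from the 58735 genes of an RNA-seq series in MDA-MB-453 cells. The pro-survival members were BCL2, BCL2L1 (the gene of BCL-XL) and MCL1. The pro-death members were the effector BAX and 6 BH3-only genes, BBC3 (PUMA), PMAIP1 (NOXA), BCL2L11 (BIM), BIK, HRK and BMF. MDA-MB-453 is an established human breast cancer cell line of luminal type that lacks estrogen receptor alpha. Wild-type cells were compared in 7 groups of 3 libraries, 21 in all. Beside the untreated control, cells received one of the metals, calcium at 10 mM or cadmium at 10 μM, or GSK4716 at 5 μM, an agonist of the orphan nuclear receptor ESRRB. The other 3 groups held DES (diethylstilbestrol), an ESRRB antagonist, at 10 μM, either alone or before one of the metals at the same doses. GSK4716 and DES were dissolved in ethanol. Each agent was given for 24 h, and where DES preceded a metal it was added 3 h earlier. Serum was left out of the medium for calcium and GSK4716, whereas the cadmium medium kept a little charcoal-stripped serum. A single control group was labelled as untreated, so medium, vehicle and treatment cannot be told apart in a comparison with it.

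Cells that enter apoptosis through the mitochondria do so when BAX or its relative BAK1 opens the outer mitochondrial membrane. BCL2, BCL-XL and MCL1 hold these effectors and the BH3-only proteins in check, and BH3-only proteins carry stress signals that release the effectors. Several of the genes are known to be switched on by stress: BBC3 and PMAIP1 by p53 and by the integrated stress response, BCL2L11 and BBC3 by FOXO factors. MCL1 protein turns over quickly, and BCL2L11 and BMF proteins are tethered to the cytoskeleton until released. The values below are RNA levels only. Neither protein nor cell death was measured in these libraries.

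Levels are FPKM, fragments scaled for the length of the gene and the size of the library, so that they can be set side by side between genes. The library size behind the deposited FPKM was 0.693 to 1.15 times the fragments on genes, and how it was set is not given in the sources used here. Levels rescaled to the fragments on genes were therefore compared as well, and are named where they change whether libraries overlap. Libraries held 14435925 to 28424805 fragments on genes (median 18314738). The luminal markers KRT8, KRT18, EPCAM, GATA3, FOXA1 and ERBB2 were present in every library, with a summed level of 749.8 to 2085 FPKM, and ESR1 did not exceed 0.123 FPKM. Of 7 markers of other cell types, 6 stayed below 0.70 FPKM, while COL1A1, a fibroblast collagen, ran from 9.34 to 32.7 FPKM (11.2 in the control and 20.3 with DES on average). Mitochondrial transcripts took 7.70% to 8.19% of the fragments in the control libraries, 4.88% to 7.55% with calcium and 3.47% to 4.96% with DES, and 4.34% to 5.17% and 1.97% to 5.31% where calcium or cadmium followed DES. With cadmium alone and with GSK4716 they ranged from 7.36% to 9.75% and from 8.20% to 8.84%. Their part, and that of COL1A1, in the differences below was not tested. In bulk RNA, fewer cells with a transcript and less of it per cell cannot be told apart.

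In untreated cells the family spanned a wide range of levels. MCL1 was the highest at 58.7 ± 7.95 FPKM (SD, n = 3, as for all means below), followed by BCL2L1 at 39.6 ± 7.31, BIK at 22.5 ± 2.78 and BAX at 14.8 ± 1.18. BCL2L11 (4.97 ± 0.343), BMF (2.24 ± 0.0822) and BBC3 (1.94 ± 0.429) were lower, and PMAIP1 stood at 0.0987 ± 0.0677. BCL2 itself was nearly silent, with 0.152 ± 0.0918 FPKM from 18 to 64 fragments per library. HRK was at the limit of detection, set at 3 fragments, with 0, 0 and 3 fragments in the control libraries. The pro-survival sum of this line was thus almost wholly MCL1 and BCL2L1, and 8 of the 10 genes had a mean of at least 0.5 FPKM over the 21 libraries, the minimum used for the tests. Those tests were made with limma on log2(FPKM + 0.1) over 14686 genes, with Benjamini-Hochberg adjustment and a threshold of 0.05. Fold changes on this scale understate the change of low genes, among these 8 PMAIP1 above all, and also that of BCL2 and HRK. PMAIP1 passed the minimum (mean 1.12 FPKM) only through the treated groups where it was high, so its calls against the control are no support of their own. BCL2 and HRK were read from a fit without the minimum.

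**Figure D1:**
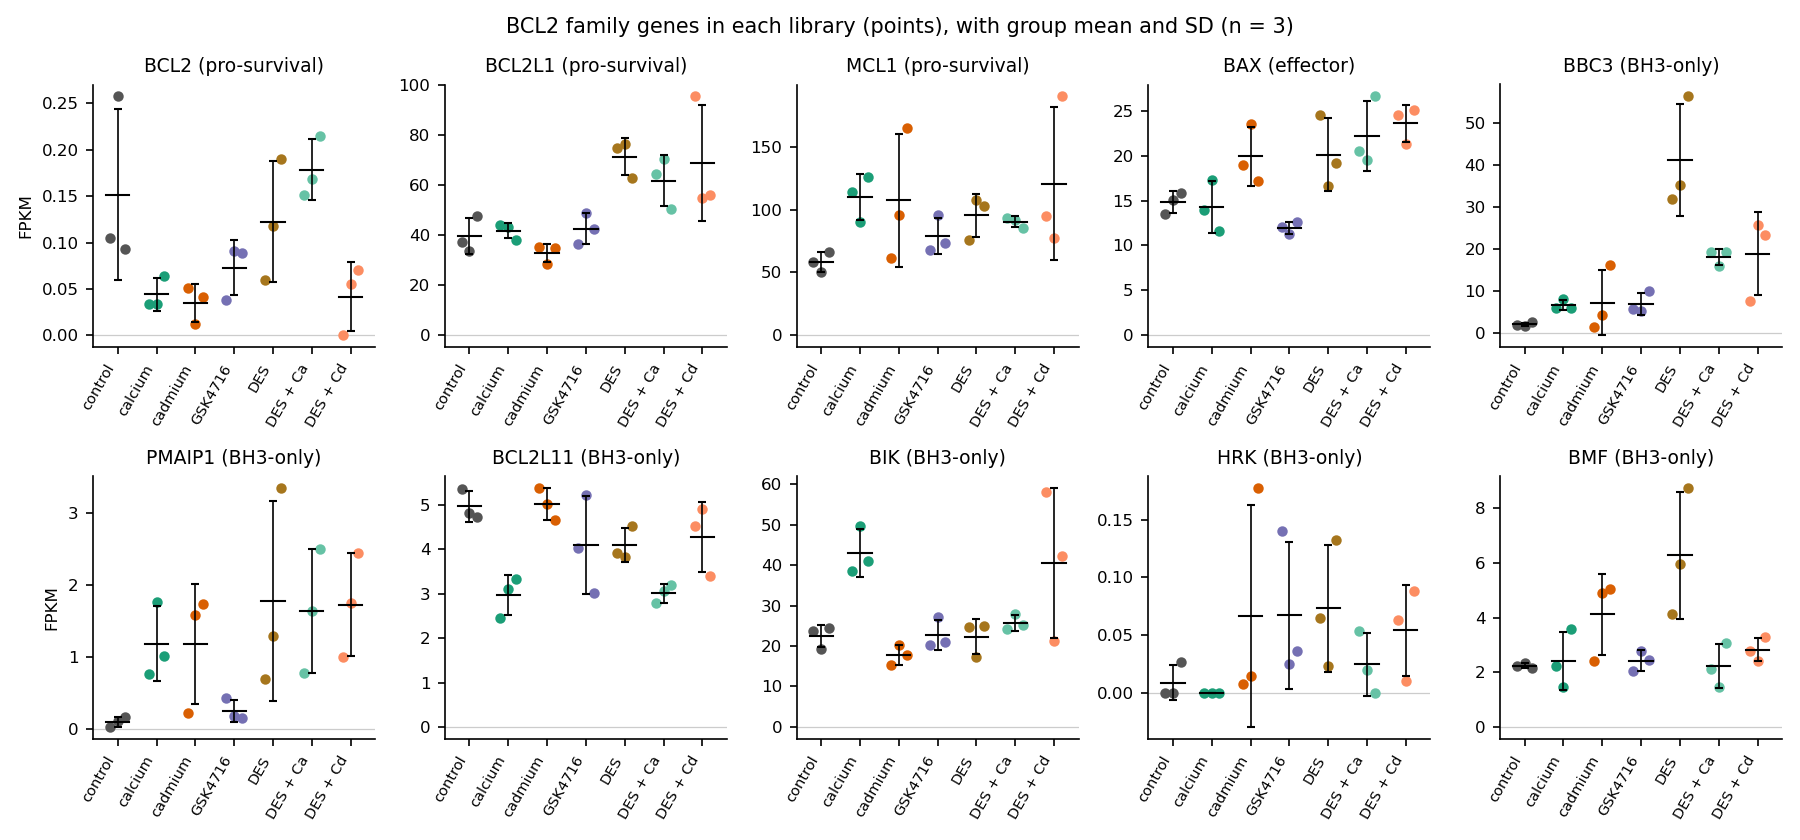
FPKM of the 10 genes in each library of the 7 groups; each panel has its own linear axis, horizontal lines mark the group mean and bars the SD (n = 3). BBC3 stands at 31.8 to 56.2 in the DES libraries and at 1.65 to 2.44 in the control, while BCL2 and HRK stay below 0.3 in every library.

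DES gave the most calls in the family. Of the 10 genes, 5 rose, the BH3-only genes BBC3, PMAIP1 and BMF and the pro-survival genes BCL2L1 and MCL1, and none fell (limma, adjusted p under 0.05). Without the minimum level BBC3 alone was called, and the adjusted p was 0.0664 for BCL2L1, 0.0765 for BMF, 0.0849 for PMAIP1 and 0.145 for MCL1. Over all genes tested, DES called 29.6%, with 16.7% called higher. When libraries were scaled by their total fragments on genes, the calls among all genes split into 1853 higher and 2555 lower, against 2447 and 1893 as deposited.

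BBC3, a BH3-only protein that binds every pro-survival member, stood at 1.74, 1.65 and 2.44 FPKM in the control libraries and at 31.8, 35.2 and 56.2 with DES. The lowest DES library was far above the highest control library. The rise was 21.1-fold between the means, or 4.31 on the log2 scale (SE 0.26, 95% confidence interval 3.69 to 4.93, limma adjusted p = 0.000274). It was called under all 7 other settings of the analysis, with adjusted p from 8.48e-05 to 0.0104, and with any single library left out.

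PMAIP1, which mainly counters MCL1, had 0.0277, 0.106 and 0.163 FPKM in the control, from 2, 5 and 6 fragments, against 0.692, 1.29 and 3.35 with DES. The groups did not overlap, although the DES libraries differed widely among themselves. The log2 difference was 3.03 (SE 0.62, limma adjusted p = 0.0126). BMF, a BH3-only protein held at the actin cytoskeleton, went from 2.23, 2.33 and 2.17 to 4.12, 5.97 and 8.74 FPKM, a rise of 1.38 on the log2 scale (SE 0.28, limma adjusted p = 0.0125). DES replicate 3 was the highest of its group for all 3 of these genes.

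BBC3 and PMAIP1, the BH3-only genes that rose with both DES and calcium, are shown with the stretch just before the start of the gene in the deposited annotation, from RefSeq promoters on GRCh38.p14. BBC3 lies on the minus strand (chr19:47220822-47232766) and PMAIP1 on the plus strand (chr18:59899948-59904306). The sequences are written 5′ to 3′ on the strand of the gene. Capitals mark an AP-1 element in BBC3, 7 bases before the end of the window, and the reverse complement of the TGACG core of a cAMP response element in PMAIP1, 2 bases before its end.
BBC3, chr19:47232767-47232917, minus strand: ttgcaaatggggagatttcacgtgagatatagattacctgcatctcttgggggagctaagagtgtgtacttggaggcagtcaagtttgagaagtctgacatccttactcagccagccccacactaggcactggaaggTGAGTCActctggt
PMAIP1, chr18:59899746-59899947, plus strand: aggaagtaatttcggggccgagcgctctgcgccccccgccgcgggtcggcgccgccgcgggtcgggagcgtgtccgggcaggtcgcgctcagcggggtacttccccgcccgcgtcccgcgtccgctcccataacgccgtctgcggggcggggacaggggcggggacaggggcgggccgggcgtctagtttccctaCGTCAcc

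The 250 bases before the start were searched on both strands in 35116 RefSeq promoters, among them those of 8 members; MCL1 and BIK had no entry. The AP-1 element TGANTCA was in 6.57% of all promoters and in 1 of the 8, BBC3. The core TGACG was in 21.2% and in 6, BAX, BCL2, BCL2L1, BMF, HRK and PMAIP1, while the full element TGACGTCA, which contains it, was in 1.65% and in none. The C/EBP-ATF element TGATGNAA was in 3.14% and in HRK, and the FOXO element GTAAACA in 2.98% and in BCL2L11. The estrogen-related receptor element TNAAGGTCA (0.854% of all promoters) and the p53 element core (5.57%) were in none of the 8. A match describes these letters and is not a binding site.

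The pro-survival genes rose less. BCL2L1 had 37.3, 33.7 and 47.7 FPKM in the control and 74.8, 76.2 and 62.8 with DES, with no overlap and a log2 difference of 0.86 (SE 0.18, limma adjusted p = 0.0141). MCL1 had 58.7, 50.8 and 66.7 FPKM in the control and 75.7, 107 and 103 with DES, without overlap as deposited but with overlap when rescaled to fragments on genes, and a log2 difference of 0.69 (SE 0.20, limma adjusted p = 0.0375). The MCL1 call was the least secure of the 5, since its adjusted p was 0.109 when libraries were scaled by total fragments on genes and 0.0918 with limma-voom, within a range of 0.0367 to 0.145 over the 7 settings. Without control replicate 1 only BBC3 and PMAIP1 were still called with DES, and without control replicate 2 or DES replicate 2 BBC3, PMAIP1 and BMF. The share called among all genes was 13.1%, 14.5% and 16.6% in these fits.

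The other members did not pass the test with DES. BAX, the effector, had 13.6, 15.1 and 15.9 FPKM in the control and 24.5, 16.6 and 19.1 with DES. Every DES library lay above every control library as deposited, though not when rescaled, and the log2 difference of 0.42 (95% confidence interval -0.01 to 0.85) had an adjusted p of 0.121 in limma. BCL2L11 lay below the control in every DES library, with means of 4.97 and 4.09 FPKM and a log2 difference of -0.28 (adjusted p = 0.240 in limma). BIK did not separate at all, with means of 22.5 and 22.3 FPKM. In all, 6 of the 10 genes (4 when rescaled) lay above and 1 below the control in every library, as did 25.9% and 22.9% of all genes tested, as deposited. Such shares of all genes were not counted on rescaled levels. BCL2 overlapped the control, with 16 to 37 fragments per DES library, and HRK had 3 to 15.

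**Figure D2:**
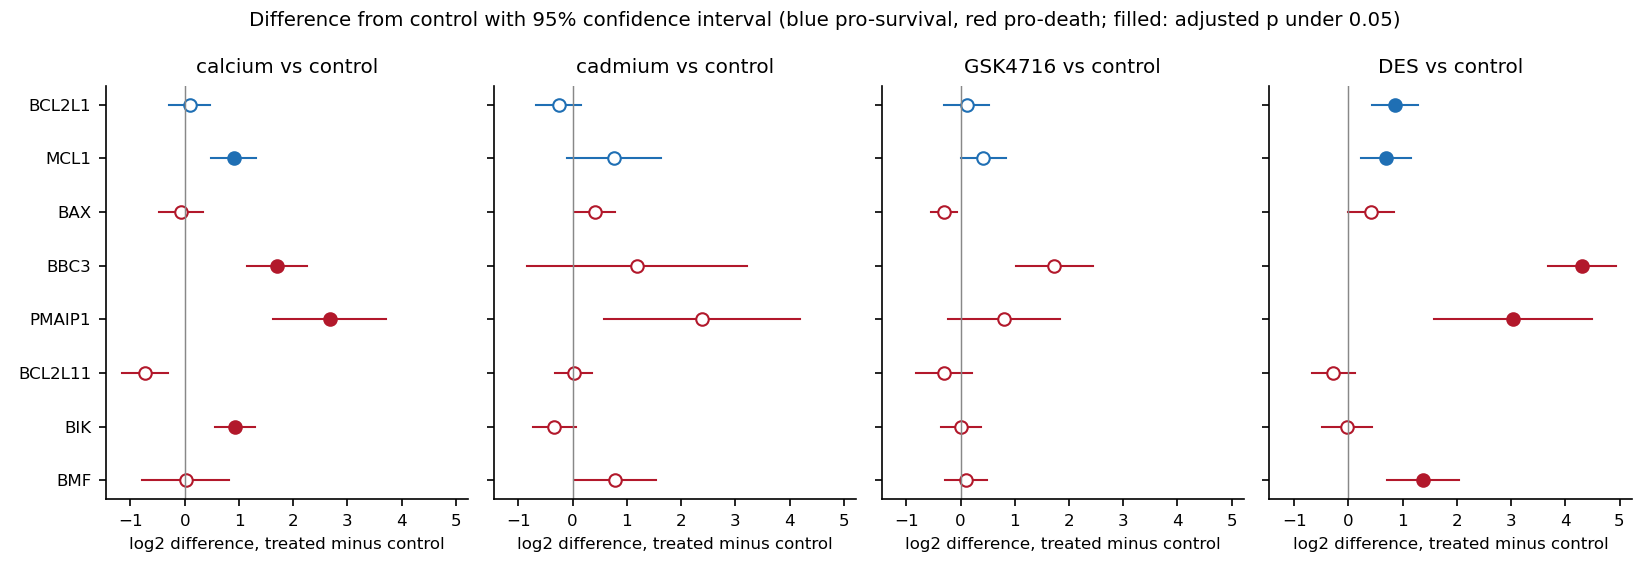
Log2 difference from control (points) with 95% confidence interval (lines) for the 8 genes that passed the minimum level, in 4 panels for calcium, cadmium, GSK4716 and DES; filled points have an adjusted p under 0.05. BBC3 with DES, at 4.31, is farthest from 0, and the interval of BBC3 with cadmium, -0.85 to 3.22, is the widest drawn.

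Calcium raised 4 of the 10 genes, BBC3, PMAIP1, BIK and MCL1, and none was called lower. None of the 4 was called without the minimum level or with the replicate block, and in the fit of all 7 groups BBC3 (adjusted p = 0.123), BIK (adjusted p = 0.0531) and MCL1 (adjusted p = 0.128) were lost as well. Calcium called 7.12% of all genes tested, with 4.60% called higher. Scaled by total fragments on genes, the calls among all genes split into 551 higher and 568 lower, against 675 and 371 as deposited. BBC3 and PMAIP1, the genes whose promoters are printed above, rose here as well. BBC3 had 5.83, 8.06 and 5.83 FPKM with calcium, all above the control range of 1.65 to 2.44, for a log2 difference of 1.71 (SE 0.23, limma adjusted p = 0.0166). PMAIP1 had 0.762, 1.77 and 1.02 FPKM, all above the control maximum of 0.163, for a log2 difference of 2.68 (SE 0.43, limma adjusted p = 0.0244, and 0.134 without the minimum).

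BIK, a BH3-only protein that resides at the endoplasmic reticulum, was called higher with calcium and with no other agent given alone. Its libraries had 23.6, 19.3 and 24.5 FPKM in the control and 38.4, 49.8 and 41.0 with calcium, for a log2 difference of 0.93 (SE 0.15, limma adjusted p = 0.0250). The difference between agents was not tested. MCL1 had 114, 90.5 and 126 FPKM with calcium, above the control maximum of 66.7, and rose by 0.90 on the log2 scale (SE 0.17, limma adjusted p = 0.0365). BCL2L11 went the other way, with 5.36, 4.82 and 4.73 FPKM in the control and 2.46, 3.11 and 3.33 with calcium. These ranges did not overlap, and the log2 difference of -0.73 (SE 0.17) had a limma adjusted p of 0.0602, which was 0.0488 when scaled by total fragments and 0.0209 with limma-voom (range over 7 settings 0.0209 to 0.160).

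BCL2L1, BAX and BMF overlapped the control with calcium, with log2 differences of 0.09, -0.07 and 0.02. BCL2 lay below the control in every calcium library, at 7 to 17 fragments against 18 to 64, and HRK had no fragment in any calcium library. In all, 4 genes lay above and 2 below the control in every calcium library, as did 16.0% and 13.6% of all genes tested. The calcium calls depended on single libraries. None of the 4 was called without control replicate 1, control replicate 2 or calcium replicate 2, and only BBC3 without calcium replicate 1 or 3, while MCL1 alone was lost without control replicate 3. The calls among all genes shrank too, from 1046 to 7 without control replicate 1.

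Cadmium gave no call among the 10 genes in limma. It called 0.150% of all genes tested. At an unadjusted p under 0.05 there were 3 members, BAX, PMAIP1 and BMF (25.9% of all genes). limma-voom called none of the members and 3.09% of all genes, and the fit of all 7 groups called PMAIP1 (adjusted p = 0.0377) and 6.99% of all genes. The cadmium libraries were not alike. BBC3 had 1.33, 4.08 and 16.0 FPKM in cadmium replicates 1, 2 and 3, so that replicate 1 lay below the control and replicate 3 far above it. The log2 difference of 1.19 (SE 0.84, limma adjusted p = 0.396) therefore had a 95% confidence interval from -0.85 to 3.22.

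PMAIP1 and MCL1 had the same order of cadmium libraries. PMAIP1 had 0.221, 1.58 and 1.74 FPKM, each above the control, with a log2 difference of 2.39 (limma adjusted p = 0.124), and MCL1 had 61.2, 95.6 and 165 FPKM. BMF had 2.42, 4.89 and 5.06 FPKM with cadmium against 2.17 to 2.33 in the control, a log2 difference of 0.78 (limma adjusted p = 0.182). Without cadmium replicate 1, PMAIP1 and BMF were called, with adjusted p of 0.0269 and 0.0309, and the calls among all genes went from 22 to 1605 (10.9% of those tested). BAX had 19.0, 23.5 and 17.2 FPKM, all above the control maximum of 15.9 but overlapping it when rescaled, with a log2 difference of 0.41 (limma adjusted p = 0.167). BCL2L1, BCL2L11 and BIK overlapped the control, with log2 differences of -0.26, 0.02 and -0.34, and HRK had 1, 2 and 20 fragments in the cadmium libraries. In all, 3 members (2 when rescaled) lay above and 1 (BCL2) below the control in every cadmium library. As deposited, so did 17.7% and 16.7% of all genes tested, shares that were not counted on rescaled levels.

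GSK4716 gave no call among the members, nor among all genes (0.00%) in limma, where 2404 genes had an unadjusted p under 0.05 and limma-voom called 49. At an unadjusted p under 0.05 there were 3 members, MCL1, BAX and BBC3 (16.4% of all genes), and limma-voom called BBC3 (adjusted p = 0.0481, within a range of 0.0481 to 0.887 over the settings). BBC3 had 5.65, 5.14 and 9.87 FPKM with GSK4716, each above the control, and its log2 difference of 1.73 (SE 0.29, limma adjusted p = 0.139) was close to the 1.71 of calcium. BAX had 12.1, 11.3 and 12.6 FPKM, each below the control minimum of 13.6 (log2 difference -0.30, limma adjusted p = 0.224). BCL2L1, PMAIP1, BCL2L11, BIK and BMF overlapped the control, with log2 differences between -0.31 for BCL2L11 and 0.80 for PMAIP1, and HRK had 3 to 17 fragments. MCL1 lay above and BCL2 below the control in every GSK4716 library, which made 2 genes above and 2 below, beside 10.7% and 11.5% of all genes tested. The comparisons with control share the 3 control libraries, so a feature of these libraries enters all 4.

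The metals were also given on top of DES, and these groups were set against DES alone. Their DES was added 3 h before the metal, so the metal and the timing of DES cannot be told apart there. No member was called for calcium with DES against DES in limma (0.136% of all genes called), nor for cadmium with DES against DES (0.266%). In each of these comparisons 2 members, BBC3 and BMF, had an unadjusted p under 0.05 (13.2% and 10.4% of all genes). limma-voom called no gene at all in either comparison, and the fit of all 7 groups called no member and 1.13% and 4.11% of all genes. BBC3 had 19.2, 15.9 and 19.2 FPKM with DES and calcium, all below the DES range of 31.8 to 56.2, for a log2 difference of -1.14 (95% confidence interval -1.71 to -0.56, limma adjusted p = 0.172). With DES and cadmium it had 7.41, 25.7 and 23.3 FPKM, again all below DES, for a log2 difference of -1.27 (95% confidence interval -2.50 to -0.04, limma adjusted p = 0.466).

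BMF showed the same order. After DES and calcium it had 2.12, 1.47 and 3.09 FPKM, and after DES and cadmium 2.80, 2.42 and 3.28, against 4.12 to 8.74 for DES alone. The log2 differences were -1.45 (limma adjusted p = 0.237) and -1.07 (limma adjusted p = 0.338). BCL2L11 also lay below DES in every library with DES and calcium, at 2.78, 3.06 and 3.21 FPKM against 3.83 to 4.53. These made 3 members below DES with calcium and 2 with cadmium, and none above. Of all genes tested, 12.1% lay below and 7.84% above with calcium, and 10.9% below and 5.38% above with cadmium. BCL2, BCL2L1, MCL1, BAX, PMAIP1, BIK and HRK overlapped DES alone in both combined groups. When rescaled to fragments on genes, BCL2L1 too lay below DES in every library of both groups. BIK reached 58.1, 21.2 and 42.2 FPKM with DES and cadmium, of which the lowest lay within the DES range of 17.4 to 24.9. The 58.1 belongs to replicate 1, whose library size was 0.693 times its fragments on genes. Rescaled, BIK ran from 20.4 to 40.3 in this group and from 17.8 to 26.3 with DES.

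Whether the difference with a metal changed once DES was present was tested directly, as an interaction. It is the log2 difference on top of DES less that from untreated cells, and the earlier DES of the combined groups enters it. With calcium it was called for 1 member, BBC3, where 3.63% of all genes tested were called and 2.38% were called lower. The interaction of BBC3 was -2.85 on the log2 scale (SE 0.33, 95% confidence interval -3.58 to -2.12, limma adjusted p = 0.00311). Calcium raised the mean of BBC3 to 3.38 times the control, while with DES present it stood at 0.441 times DES alone. Seen from the other side, DES raised BBC3 21.1-fold without a metal and by a ratio of 2.76 in the presence of calcium. The call held without any single library, and was lost (adjusted p = 0.110) in a fit of all 7 groups.

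PMAIP1 and MCL1 had calcium interactions of -2.66 (limma adjusted p = 0.0999) and -0.96 (limma adjusted p = 0.0629), which did not pass. With the replicate block that of PMAIP1 was called (limma adjusted p = 0.0398), as were 4.17% of all genes. For PMAIP1 the means were 1.18 FPKM with calcium, 1.78 with DES and 1.63 with both. For MCL1 they were 110, 95.3 and 90.3 FPKM. Neither gene had a higher mean FPKM with both agents than with DES alone, but the libraries overlapped. The log2 difference of PMAIP1 there was 0.016. BMF (-1.47) and BIK (-0.71) also had unadjusted p values under 0.05, so that 5 members did, beside 19.9% of all genes. With cadmium no interaction was called among the members in limma (1.18% of all genes tested), 3 had an unadjusted p under 0.05 (18.5% of all genes), and limma-voom called none. The nearest was BMF at -1.85 (SE 0.46, limma adjusted p = 0.0746). BIK, at 1.10 (limma adjusted p = 0.226), was the only one of these with a positive value, and BBC3 stood at -2.46 (limma adjusted p = 0.234).

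**Figure D3:**
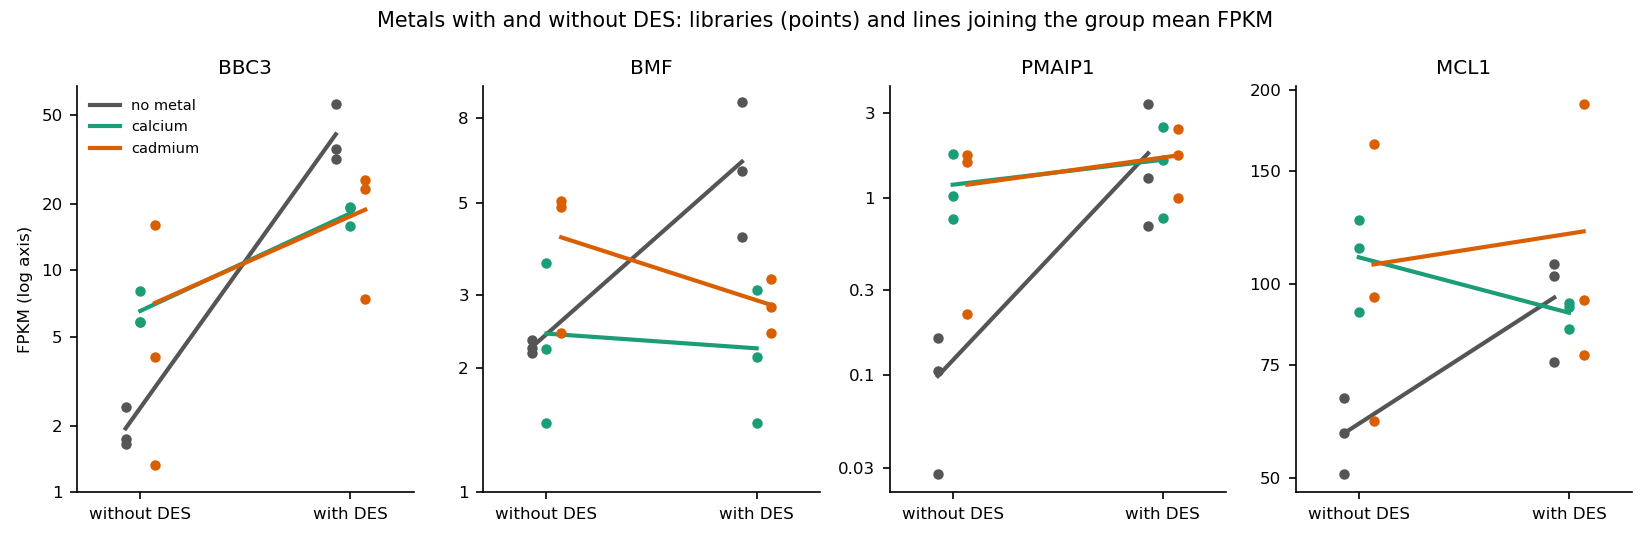
FPKM on log axes of BBC3, BMF, PMAIP1 and MCL1 without and with DES; points are libraries and lines join the group means for no metal, calcium and cadmium. For BBC3 the lines cross: without DES the means with a metal (6.57 and 7.15) lie above the control (1.94), and with DES (18.1 and 18.8) below DES alone (41.1). Cadmium replicate 1, at 1.33 without DES, lies below every control library, and only the calcium interaction was called.

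The balance of the family can be read as the pro-survival minus the pro-death mean of log2(FPKM + 0.1), given here with no test because the genes were chosen. The control had 1.99 ± 0.108, calcium 1.44 ± 0.212, cadmium 1.17 ± 0.457, GSK4716 1.63 ± 0.303 and DES 1.10 ± 0.302. DES followed by calcium had 1.56 ± 0.220 and DES followed by cadmium 1.11 ± 0.0996. Control libraries lay between 1.87 and 2.09, and of the treated libraries only GSK4716 replicate 2, at 1.88, reached into that range. The balance includes BCL2, nearly silent, and HRK, at the limit of detection. Without these genes the difference of calcium from the control was -0.26 in place of -0.55, that of cadmium -0.49 in place of -0.82, that of GSK4716 -0.07 in place of -0.36 and that of DES -0.70 in place of -0.89, and of the groups only DES had no library within the range of the control. With a pseudocount of 1 the control stood at 1.74, calcium at 1.65, GSK4716 at 1.71, cadmium at 1.47 and DES at 1.32. DES followed by calcium then stood at 1.58 and DES followed by cadmium at 1.49, and libraries of calcium, cadmium, GSK4716 and DES followed by calcium reached the control minimum of 1.69.

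Sums of FPKM weight the abundant genes, and their ratio did not follow the balance above in every group. The pro-survival sum went from 98.4 ± 15.0 in the control to 167 ± 16.6 with DES, and the pro-death sum from 46.6 ± 3.28 to 95.7 ± 19.1. Both arms thus stood higher, and their ratio, 2.11 ± 0.174 in the control and 1.79 ± 0.445 with DES, overlapped. The make-up of the pro-death sum differed as well. BBC3 was 4.15% ± 0.639 of it in the control, 9.28% ± 0.565 with calcium, 14.2% ± 5.28 with GSK4716, 42.4% ± 6.43 with DES, and 24.9% ± 2.45 and 21.4% ± 13.0 where calcium or cadmium followed DES. With cadmium the share ran from 3.05% to 25.5% across the libraries. MCL1 was 59.8% ± 1.44 of the pro-survival sum in the control and 72.1% ± 4.53 with calcium, without overlap, and 56.9% ± 6.04 with DES.

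**Figure D4:**
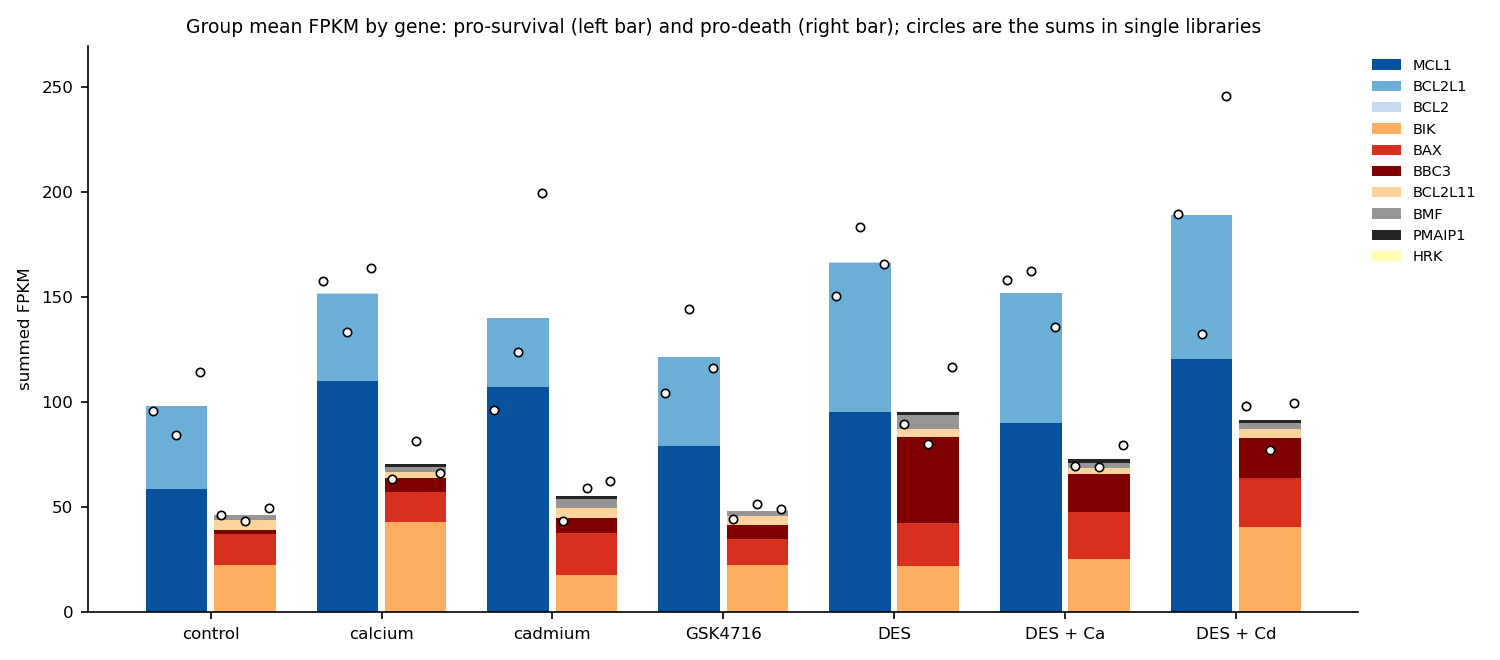
Stacked bars of group mean FPKM for the pro-survival genes (left bar of each pair) and pro-death genes (right bar), with circles for the sums in single libraries. BBC3 takes 42.9% of the pro-death bar with DES and 4.17% in the control, shares of the group means that differ a little from the means over libraries, while both bars are taller with DES.

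Across all 7 groups, the order of the group means differed between members, and a full separation of libraries was found for 2. Every DES library of BBC3, from 31.8 FPKM, lay above every library of the other 6 groups, which reached 25.7 with DES and cadmium. Every library of the 3 groups with DES had more BCL2L1, from 50.4 FPKM, than any library of the 4 groups without, up to 48.8. The separation of BBC3 held when levels were rescaled to fragments on genes, while for BCL2L1 only DES alone then stood apart, its lowest library at 66.3 just above the highest of the other 6 groups. In the other 8 genes neighbouring groups were at most apart from each other and not from all the rest. For PMAIP1 the means dropped between calcium (1.18) and GSK4716 (0.252), whose libraries did not overlap, but cadmium replicate 1, at 0.221, lay within the GSK4716 range. The control had the lowest mean of MCL1 (58.7), below every GSK4716 library, yet cadmium replicate 1, at 61.2, lay within its range. For BAX the cadmium and control libraries did not overlap, while calcium, with a lower mean than the control, reached 17.3, above the lowest cadmium library at 17.2. BCL2L11 had its lowest means in the 2 groups with calcium, at 2.97 and 3.02, apart from DES at 4.09 but not from GSK4716, whose lowest library had 3.02. BCL2, BIK, HRK and BMF had no gap between any neighbouring groups.

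Over the 21 libraries BBC3 and PMAIP1 had a Pearson r of 0.751 on log2(FPKM + 0.1), a description that rests on libraries shared between the genes. The genes with the pattern most like BBC3 among those tested were AL355353.1 (r = 0.926), AEBP2 (0.917), a Polycomb cofactor, and ECH1 (0.915), an enzyme of fatty acid oxidation. ECH1, for example, had means of 10.0 FPKM in the control, 37.8 with DES, and 26.8 and 27.8 where calcium or cadmium followed DES. For PMAIP1 they were ADM (0.877), GABARAPL1 (0.874) and NFIL3 (0.855), and for BMF SLC25A30 (0.868), ADNP2 (0.857) and CCNK (0.856). ADM, the hormone adrenomedullin, was lowest in the control (0.383 FPKM) and highest with DES (31.2).

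The other genes of the pathway were taken from 7 lists, 58 genes in all, with SESN2, TNFRSF10B and FAS in 2 lists each. Values given for these genes without a unit are log2 differences, and those said to have risen or fallen had an adjusted p under 0.05 in limma. The remaining BCL2 family (BCL2L2, BCL2A1, BCL2L10, BAK1, BOK, BID and BAD) had no call in any of the 8 comparisons. BAK1, the effector that acts beside BAX, had log2 differences of 0.17 with DES (limma adjusted p = 0.462) and 0.31 with calcium (limma adjusted p = 0.321). Of this list 5 of 7 passed the minimum, with a median log2 difference of 0.31 for both DES and calcium, beside 0.05 and -0.01 over all genes. Of the 18 list genes called with DES, 7 to 17 were called with a single library left out, and of the 9 called with calcium 0 to 7, none of them without control replicate 1 or control replicate 2. Counts of list genes stand beside the 29.6% (16.7% higher) called among all genes with DES and the 7.12% (4.60% higher) with calcium. Cadmium, GSK4716 and the metals on top of DES called no gene of any of the 7 lists. Their largest list medians were 1.29 for the integrated stress response with GSK4716 (10 of 10 genes above 0) and 0.90 for the same list with cadmium (9 of 10).

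Downstream of the mitochondria, the 11 genes of the apoptosome and caspase list had 2 calls with DES among the 9 that passed the minimum, below the 29.6% of all genes. There HTRA2, a mitochondrial protease released in apoptosis, rose by 0.68, and CASP8, the initiator caspase of death receptors, fell by 0.90. Neither was called with the replicate block (adjusted p = 0.0573 and 0.0744) or without the minimum (adjusted p = 0.0542 and 0.0562). Both were also lost without any one control library, and HTRA2 with limma-voom (adjusted p = 0.0521). Of the 7 inhibitors of apoptosis, BIRC5 (survivin, which also acts in mitosis) fell with calcium by 1.62, from 16.5 ± 5.05 to 5.26 ± 1.37 FPKM. With DES the caspase inhibitor XIAP fell by 1.20 and BIRC6 by 0.83, and no gene of the list rose. Without the minimum neither passed (adjusted p = 0.0882 and 0.119), nor did BIRC6 with the replicate block (adjusted p = 0.0607). BIRC5 had a calcium interaction of 1.72 (limma adjusted p = 0.0196), with 17.0 ± 0.513 FPKM under DES and calcium. In the fit of all 7 groups neither its calcium difference (adjusted p = 0.646) nor its interaction (adjusted p = 0.722) passed.

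Of the 8 death receptor and ligand genes, 2 were called higher with calcium and 3 lower with DES. Calcium raised the TRAIL receptors TNFRSF10A (0.87) and TNFRSF10B (0.94). Neither was called with the replicate block (adjusted p = 0.0994 and 0.0598) or without the minimum (adjusted p = 0.0978 and 0.0784), and TNFRSF10B was also lost in the fit of all 7 groups (adjusted p = 0.127). DES lowered TNFRSF10A (-0.92), the ligand TNFSF10 (-1.24) and the adaptor FADD (-1.09). Here TNFRSF10A was lost with the replicate block (adjusted p = 0.0583) and TNFSF10 without the minimum (adjusted p = 0.0571). The list median was 0.39 with calcium and -0.73 with DES, again beside -0.01 and 0.05 over all genes.

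Of 13 p53 target genes, 12 passed the minimum. Calcium raised 3, the growth factor-like GDF15 (4.12), the cell cycle inhibitor CDKN1A (3.15, from 10.7 ± 2.78 to 98.3 ± 36.6 FPKM) and TNFRSF10B. DES raised 2, GDF15 (2.40) and SESN2 (1.11), a share of the 12 no larger than the 16.7% called higher among all genes. CDKN1A had a calcium interaction of -2.55 (limma adjusted p = 0.0300), which was called with 5 of 12 libraries left out and lost in the fit of all 7 groups (adjusted p = 0.108) and without the minimum (adjusted p = 0.129). The list medians were 0.21 with calcium and 0.38 with DES.

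The integrated stress response list of 10 genes had the most calls. DES raised 7, led by PPP1R15A (4.64, from 6.36 ± 2.57 to 155 ± 28.8 FPKM), a phosphatase subunit that ends the response, and the transcription factors ATF3 (4.39) and DDIT3 (2.30) with the asparagine synthetase ASNS (2.92). ASNS had 0.421 ± 0.132 FPKM in the control. It passed the minimum only through treated groups where it was high, so its call is no support of its own. Calcium raised ATF3 (5.52, from 1.91 ± 0.693 to 115 ± 104 FPKM) and PPP1R15A (2.77) and lowered DDIT4 (-0.97), a repressor of mTORC1. ATF3 and PPP1R15A had calcium interactions of -5.48 (limma adjusted p = 0.00446) and -2.80 (limma adjusted p = 0.00751), the second lost in the fit of all 7 groups (adjusted p = 0.0787). The list median was 1.50 with DES (8 of 10 genes above 0) and 0.44 with calcium (7 of 10). TRIB3 (135 ± 74.7 to 86.0 ± 19.1 FPKM) and VLDLR (0.972 to 0.752) had lower means with DES and were not called. Without the minimum, ATF4, CHAC1, DDIT3 and SESN2 lost their DES call. Without control replicate 1, ATF4, CHAC1 and SESN2 lost it. These fits called 4.67% and 13.1% of all genes.

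Of the 5 FOXO genes and targets, DES raised FOXO1 (2.14), TXNIP (1.53) and KLF9 (0.88), and calcium raised FOXO1 (1.53). FOXO1 was called in both interactions, at -2.04 with calcium (limma adjusted p = 0.0172) and -2.58 with cadmium (limma adjusted p = 0.0334). Its means were 2.12 ± 0.273 FPKM in the control, 9.92 ± 3.03 with DES, and 6.77 ± 0.988 and 3.85 ± 1.29 where calcium or cadmium followed it. KLF9 was called with DES in 3 of 7 other settings and with 1 of 6 libraries left out. The cadmium interaction of FOXO1 was called in 5 of the 7 and with 5 of 12 libraries left out. The list medians were 0.88 with DES and 0.29 with calcium.

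**Figure D5:**
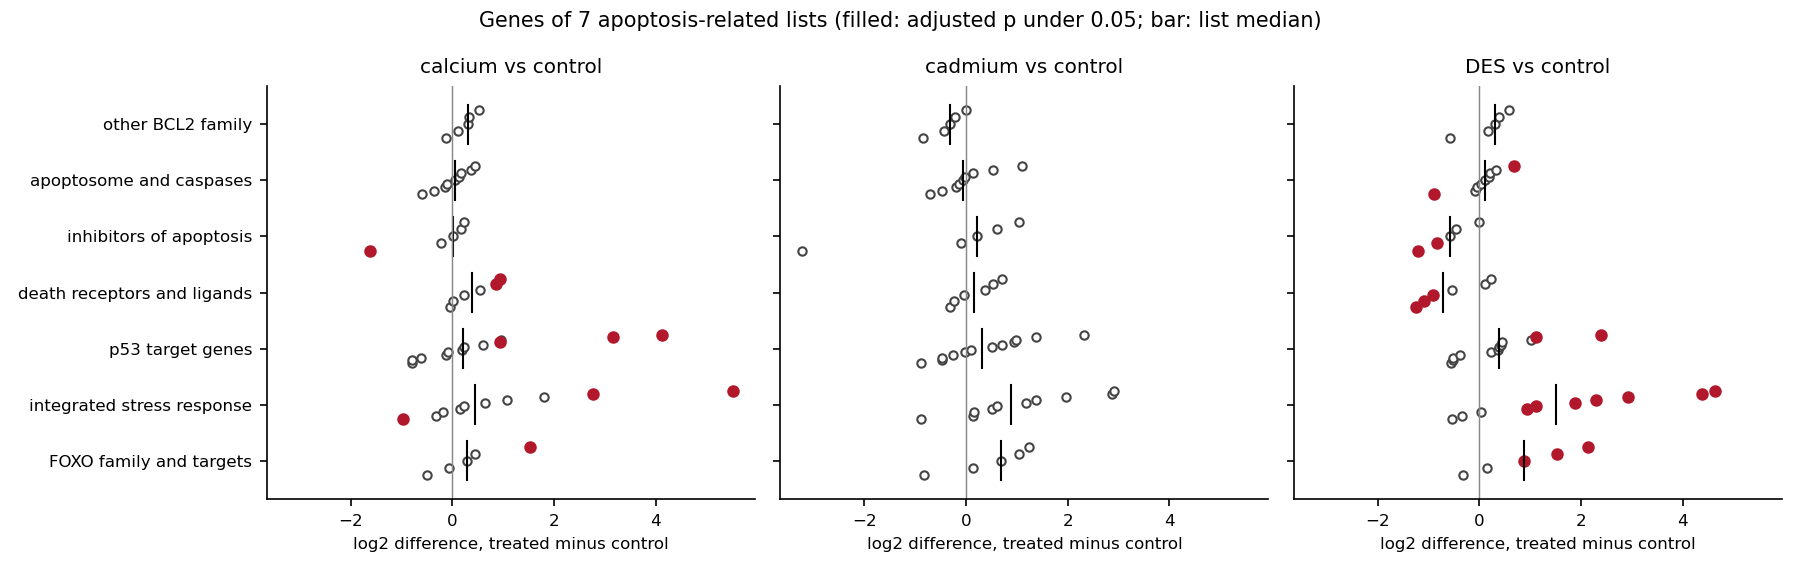
Log2 difference from control of the genes of 7 lists with calcium, cadmium and DES; each point is a gene that passed the minimum level, filled where the adjusted p is under 0.05, and the bar is the list median. The integrated stress response list has 7 filled points with DES, and no point is filled with cadmium.

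Some members share exon bases with other annotated genes, and whether the libraries kept the strand is not settled by the sources. BCL2L1 shares 1735 of its 4197 exon bases with the opposite-strand ABALON, BCL2L11 727 of 6742 with MIR4435-2HG and BMF 461 of 5447 with BMF-AS1. MCL1 shares 328 of 6222 with ADAMTSL4-AS1, on its own strand, and BBC3 holds the microRNA genes MIR3190 and MIR3191. Fragments of these stretches cannot be assigned with certainty. BAX, PMAIP1, BIK, BCL2 and HRK shared none. BCL2 (chr18:63123346-63320128) and PMAIP1 lie on the same chromosome, as do BAX (chr19:48954815-48961798) and BBC3. BCL2L1 lies at chr20:31664452-31723989, MCL1 at chr1:150574551-150579738, BCL2L11 at chr2:111119378-111168447, BIK at chr22:43110748-43129712, HRK at chr12:116856144-116881441 and BMF at chr15:40087890-40108892.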

How the data were processed

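RNA-seq values of 21 MDA-MB-453 libraries in 7 groups of 3 were analysed. The values deposited by the authors are FPKM for each gene, and per the submitters' processing notes the tools were HISAT2 2.0.5 and featureCounts 1.5.0-p3 on GRCh38.p14. The study's methods name DESeq2 and edgeR for differential expression, and these were not run here. Within a library, FPKM times gene length stepped by a constant (100% of values within 0.01 of a whole step), so whole fragments could be recovered, used for depth and for limma-voom. In no pair of libraries did more than 2.35% of the genes have equal fragments.

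Tests used limma 3.58.1 in R 4.3.3 (lmFit and eBayes with a trend, two-sided, Benjamini-Hochberg) on log2(FPKM + 0.1) for genes with a mean of at least 0.5 FPKM, with only the compared groups in the fit. An exact permutation test of 3 against 3 libraries cannot go below p = 0.1 and was not used. The labels number the replicates but do not say whether they are separate cultures, so p-values measure the spread between these libraries, which may be technical. Same-numbered libraries deviated together where a metal on top of DES was compared with DES (correlations of 0.132, 0.103 and 0.280 with calcium, 0.472, 0.121 and 0.313 with cadmium), but not throughout in the other comparisons.

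All 10 members were followed in each comparison, and from each list up to 4 called genes with the largest log2 difference, plus BAK1, chosen after its values were seen. The lists were other BCL2 family, apoptosome and caspases, inhibitors of apoptosis, death receptors and ligands, p53 targets, integrated stress response, and FOXO family and targets. A gene of these lists and a marker of the line are not reported here, and counts and sums are without them. Likeness was measured for the 3 members of mean FPKM of at least 1 with the widest range of group means. The members, lists and tests were chosen with earlier results of these data known. Alternatives were a pseudocount of 1, no minimum level, median-ratio scaling, all 7 groups in one fit, a replicate block, limma-voom, each library left out and, added after seeing the data, a balance without BCL2 and HRK and scaling by total fragments on genes. The fits were tested on simulated fragments. Exon overlaps were read from the GENCODE annotation, and tables used Python 3.11.15.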

Additional observations from a re-analysis of the deposited data

Results flagged for a closer look

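The effect of calcium on BBC3 differed with and without DES by -2.85 on the log2 scale in the interaction test (limma adjusted p = 0.00311): every calcium library lay above the control and every library with DES and calcium below DES alone. For BMF the effect of cadmium differed by -1.85 with and without DES, with every cadmium library above the control and every library with DES and cadmium below DES alone. That interaction did not pass the test (limma adjusted p = 0.0746, range 0.0375 to 0.148 over 7 other settings). DES in the combined groups was added 3 h before the metal, so the metal and the timing of DES cannot be told apart in either result. No group here had 4 or more libraries, so no single library was tested as an outlier.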

How the results depend on the processing

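BBC3 was called higher with DES under every alternative run, and its calcium interaction under every one but the fit of all 7 groups. Of the values recomputed under settings other than leaving a library out, 697 kept their direction and side of the threshold, 69 lost and 7 gained a call and 18 changed sign, none of them a called value. With single libraries left out, the same tally was 677, 113, 7 and 37. Counts of called members moved as follows, and the cause was not tested except where fewer samples or more genes enter by construction. Without the minimum level, which tests 45127 genes for calcium, calcium called 0 and DES 1 (BBC3). All 7 groups in one fit called 2 with calcium (BCL2L11 and PMAIP1), 1 with cadmium (PMAIP1), 0 for the calcium interaction and 1 for the cadmium interaction (BMF), while its calls among all genes were 743, 1026, 180 and 802, against 1046, 22, 533 and 173. limma-voom called 1 with GSK4716 (BBC3). The replicate block called 0 with calcium and 2 for the calcium interaction (BBC3 and PMAIP1). It changed no other count of members by over 1.5 times, and for the metals on top of DES, where the numbers pair the libraries, it left the count at 0, with BBC3 at -1.14 (adjusted p = 0.201) and -1.27 (adjusted p = 0.198). With each library left out, calls ranged from 0 to 3 with calcium, 0 to 2 with cadmium (2 without cadmium replicate 1), 2 to 5 with DES, 1 to 3 for the calcium interaction (3 without DES replicate 1) and 0 to 1 for the cadmium interaction (BMF without cadmium replicate 1 or DES replicate 1, BIK without DES with cadmium replicate 2), and stayed at 0 in the other 3 comparisons. In the same fits, calls among all genes went from 22 to 1605 with cadmium without cadmium replicate 1 and from 533 to 830 for the calcium interaction without DES replicate 1. For the cadmium interaction they went from 173 to 310, 232 and 410 without cadmium replicate 1, DES replicate 1 and DES with cadmium replicate 2. A pseudocount of 1 gave a balance of 1.74 in the control and 1.49 with DES and cadmium. Without BCL2 and HRK, an alternative added after seeing the data, the control had 3.82, calcium 3.56, cadmium 3.33, GSK4716 3.75 and DES 3.12, against 3.42 and 3.38 where calcium or cadmium followed DES. Of the 9 list genes called with calcium, 0 were called without the minimum, 1 with the block and 7 in the fit of all 7 groups, and of the 18 called with DES 7, 12 and 16. Calls among all genes for calcium went from 1046 to 60 without the minimum, 260 with the block and 1586 with limma-voom, for cadmium from 22 to 1026 in the fit of all 7 groups, and for DES from 4340 to 2106 without the minimum.

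Scaling by total fragments shifted the median of all genes by -0.11 for calcium and -0.17 for DES against control, by -0.13 (calcium) and -0.20 (cadmium) where a metal on top of DES was set against DES, and by -0.15 for the cadmium interaction. It turned the sign of uncalled log2 differences near 0: with calcium BCL2L1 (-0.027) and BMF (-0.10), with cadmium BCL2L11 (-0.040), with GSK4716 BIK (-0.0051), with DES and calcium against DES PMAIP1 (-0.11), with DES and cadmium against DES PMAIP1 (-0.056) and BCL2L11 (-0.16), and in the cadmium interaction BCL2L11 (-0.12). limma-voom turned BCL2L1 (-0.024) and BMF (-0.086) with calcium, BCL2L11 (-0.048) with cadmium, BIK (-0.015) with GSK4716, BAX (-0.008001) with DES and calcium, BCL2L11 (-0.18) with DES and cadmium, and BCL2 (-0.47) and BCL2L11 (-0.13) in the cadmium interaction. Median-ratio scaling turned BCL2L11 (-0.002514) with cadmium, and a pseudocount of 1 PMAIP1 (-0.016) with DES and calcium.

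With single libraries left out, log2 differences that changed sign ranged as follows. With calcium they were -0.016 to 0.24 for BCL2L1, -0.22 to 0.066 for BAX and -0.30 to 0.32 for BMF. BCL2L11 ranged from -0.033 to 0.072 with cadmium, and with GSK4716 BIK from -0.12 to 0.089 and BMF from -0.0044 to 0.21. With DES the ranges were -0.37 to 0.12 for BCL2 and -0.13 to 0.15 for BIK. For DES and calcium against DES they were -0.22 to 0.031 for MCL1 and -0.47 to 0.59 for PMAIP1. For DES and cadmium against DES they were -0.36 to 0.041 for BCL2L1, -0.14 to 0.51 for MCL1, -0.34 to 0.72 for PMAIP1, -0.055 to 0.20 for BCL2L11 and -0.38 to 0.079 for HRK. In the cadmium interaction they were -0.077 to 0.44 for BCL2, -0.097 to 0.30 for BCL2L1 and -0.072 to 0.19 for BCL2L11. Depth limited BCL2, HRK and, in the control, PMAIP1, whose libraries held few fragments.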
